A study of Rattus norvegicus with 8 samples.

Results

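The genes described here are the Fc gamma receptors Fcgr1a, Fcgr2b and Fcgr3a, the common gamma chain Fcer1g, the neonatal Fc receptor Fcgrt and the tyrosine kinase Syk. They are the rows of the count table that carry a symbol on a list of 7 names, and 6 of the 7 names have a row among 23487 genes in all. The symbol Fcgr2a has no row and is not analysed here. All 6 genes passed the filter on low counts, which left 12124 genes to be tested.

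Peritoneal macrophages were sorted by flow cytometry (purity above 93%) from female Wistar rats of 8 weeks, 15 days after an intraperitoneal injection of 2 mg of multi-walled carbon nanotubes, and their RNA was sequenced. In the CNT-7 group, 4 rats received the needle-like MWCNT-XNRI-7, which induces mesothelioma in the rat, and in the CNT-T group, 4 rats received tangled nanotubes, which do not. Every rat therefore received nanotubes heated against endotoxin and suspended in PBS with albumin, and each difference below is one between the particles. Untreated rats were not analysed here.

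Fc receptors bind the constant part of antibodies and so let macrophages take up opsonised particles and immune complexes. The activating receptors Fcgr1a and Fcgr3a signal through Fcer1g, whose ITAM, a motif with a pair of tyrosines, is phosphorylated by kinases of the Src family and then recruits Syk. Fcgr2b carries an inhibitory motif (ITIM) in its own tail and recruits the phosphatase SHIP1, encoded by Inpp5d, which dampens the same signal. Fcgrt works differently. Inside endosomes it holds IgG and albumin with beta-2-microglobulin and returns them to the cell surface.

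The inhibitory receptor Fcgr2b rose and the high-affinity activating receptor Fcgr1a fell after CNT-7 compared to CNT-T, whereas the signalling chain that the activating receptors share did not pass the test. Fcgr2b was 2.31-fold higher and Fcgr1a 1.46-fold lower in CNT-7. The related row LOC498276, outside the list, was 1.33-fold higher in CNT-7 (edgeR's adjusted p = 0.0097). Whether that row counts an activating receptor was not settled. Syk was higher by a small margin (1.17-fold). Fcgr3a, Fcer1g and Fcgrt did not pass the test at an adjusted p-value under 0.10, the threshold of the study. Hence 3 of the 6 genes were called, 2 higher and 1 lower, and in the same 3 genes the ranges of the 4 CNT-7 and the 4 CNT-T rats were separate. Of all genes tested, 27.9% were called (13.9% higher and 14.0% lower in CNT-7), and the groups did not overlap in 24.9%. The median log2 fold change of the 6 genes was 0.13, beside 0.0083 over all genes tested. All tests used the quasi-likelihood method of edgeR, and p-values were adjusted by Benjamini-Hochberg over all genes tested. In sorted bulk RNA, a change in the share of a macrophage subset and a change in RNA per cell cannot be told apart.

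**Figure D1:**
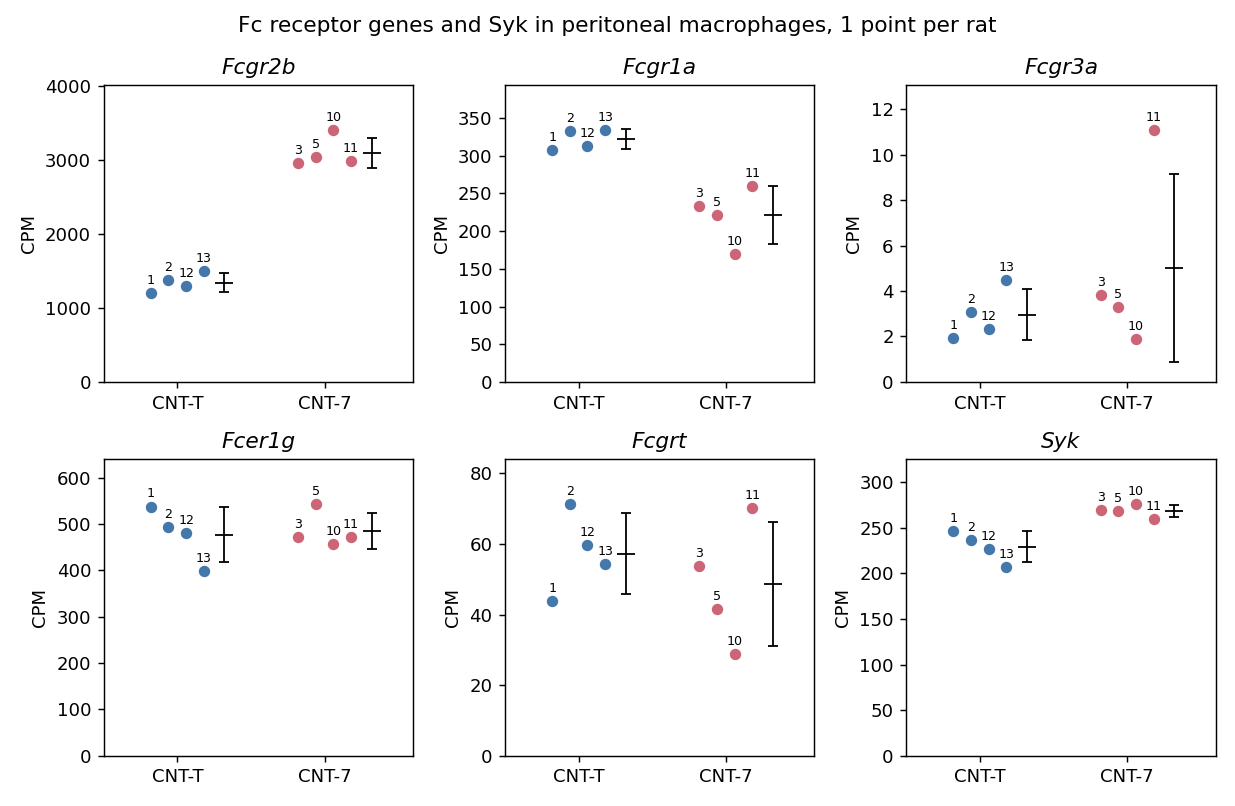
Level of each gene in every rat, in CPM (counts scaled to a library of 1000000 counts, linear axis from 0), with the rat number beside each point and the mean and SD (n = 4) beside each group. All 4 CNT-7 rats lie above the CNT-T rats for Fcgr2b (2960.3 to 3403 against 1197 to 1497 CPM) and Syk and below them for Fcgr1a, while the groups overlap for Fcgr3a, Fcer1g and Fcgrt.

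Fcgr2b (ENSRNOG00000046452), the inhibitory receptor, had 2960.3, 3039, 3403 and 2984 CPM in CNT-7 rats 3, 5, 10 and 11. In CNT-T rats 1, 2, 12 and 13 it had 1197, 1382, 1293 and 1497 CPM. The lowest CNT-7 rat was thus well above the highest CNT-T rat. The means were 3097 ± 207 CPM (SD, n = 4) with CNT-7 against 1342 ± 128 CPM (SD, n = 4) with CNT-T, and the log2 fold change was 1.21 (standard error 0.094, 95% interval 0.995 to 1.42, edgeR's adjusted p = 0.000125). Of all genes tested, 93.5% had a smaller change in size. In fits that omitted any 1 rat, the log2 fold change of Fcgr2b stayed between 1.15 and 1.26. Fcgr2b is also the main Fc gamma receptor of B cells. Of the 9 B cell and plasma cell markers in the table, 7 were under 1 CPM in every rat. With Cd22, their most abundant gene, the markers summed to 74.2 to 126 CPM in the CNT-7 group and to 129 to 148 CPM in the CNT-T group. Without Cd22 the sums were 1.12 to 4.02 CPM and 0.38 to 0.99 CPM, higher in every CNT-7 rat. The means of Fcgr2b beside them were 3097 and 1342 CPM. The part of B cells in the rise of Fcgr2b was not tested.

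Fcgr1a (ENSRNOG00000021199) encodes the receptor that binds monomeric IgG with high affinity. It had 234, 221, 169 and 260.2 CPM in CNT-7 rats 3, 5, 10 and 11 and 308, 333, 313 and 334 CPM in CNT-T rats 1, 2, 12 and 13. All CNT-7 rats were below all CNT-T rats, and the CNT-7 rats varied more among themselves. The means were 221 ± 38.3 CPM with CNT-7 against 322 ± 13.4 CPM with CNT-T (log2 fold change -0.54, standard error 0.12, 95% interval -0.81 to -0.27, edgeR's adjusted p = 0.011). Over the 8 fits that omitted 1 rat, this value stayed between -0.63 and -0.43 and the call was kept.

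The row named Fcgr3a (ENSRNOG00000024382) carries the symbol of an activating receptor, but which gene it counts is not settled, as described below. It was sparsely counted, with between 52 and 306 counts per rat. Its level was 3.81, 3.28, 1.88 and 11.1 CPM in CNT-7 rats 3, 5, 10 and 11 and 1.92, 3.07, 2.34 and 4.48 CPM in CNT-T rats 1, 2, 12 and 13. CNT-7 rat 11 was far above the others, and the groups overlapped. The log2 fold change was 0.76 with a standard error of 0.51 (95% interval -0.37 to 1.90, edgeR's adjusted p = 0.33), and without CNT-7 rat 11 it was 0.021. A difference in Fcgr3a within this wide interval could not be resolved with these rats.

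The names of the low-affinity receptors in the rat need care. In RefSeq (assembly GRCr8, which is not the assembly the authors used), Fcgr2b, Fcgr3a, Fcgr2a, Fcgr2al1, the pseudogene Fcgr2a-ps1 and Fcer1g all lie on chromosome 13. Fcgr3a has the older names CD16-2 and Fcgr4 there, whereas Fcgr3a is itself listed as an older name of Fcgr2a, beside fc-gamma RIII. Which of these genes the row named Fcgr3a counts could not be settled from its symbol. The row LOC498276 (ENSRNOG00000046663) has the gene number of Fcgr2al1 and was looked up after the values were seen, as a row named for a relative of Fcgr2a. Whether it also collects reads of Fcgr2a is not known, which bears on its level and on the sums and shares below. It had 1983, 1917, 2189 and 2118 CPM in CNT-7 rats 3, 5, 10 and 11 and 1469, 1742, 1515 and 1439 CPM in CNT-T rats 1, 2, 12 and 13. LOC498276 was higher in all CNT-7 rats than in any CNT-T rat (log2 fold change 0.41, standard error 0.088, edgeR's adjusted p = 0.0097).

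The authors' quantification divides reads between similar transcripts, so the counts of this family were also summed. Fcgr2b and Fcgr3a counted as a single row had a log2 fold change of 1.21 (edgeR's adjusted p = 0.000126). Since Fcgr3a had at most 306 counts in any rat beside at least 36726 of Fcgr2b, this sum had to come close to Fcgr2b alone. With LOC498276 added to the sum, the log2 fold change was 0.84 (95% interval 0.64 to 1.03, edgeR's adjusted p = 0.00037). Since Fcgr2b and LOC498276 were each higher in every CNT-7 rat, the sum of these 3 rows had to be higher too and is no additional result. Fcgr2b took 60.1% ± 1.29 (SD, n = 4) of the summed counts of these 3 rows with CNT-7 against 46.5% ± 3.04 (SD, n = 4) with CNT-T. The share of LOC498276 was 39.8% ± 1.22 with CNT-7 against 53.4% ± 3.07 with CNT-T, and Fcgr3a took at most 0.22% in any rat. These are shares of counts and are not scaled by transcript length.

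**Figure D2:**
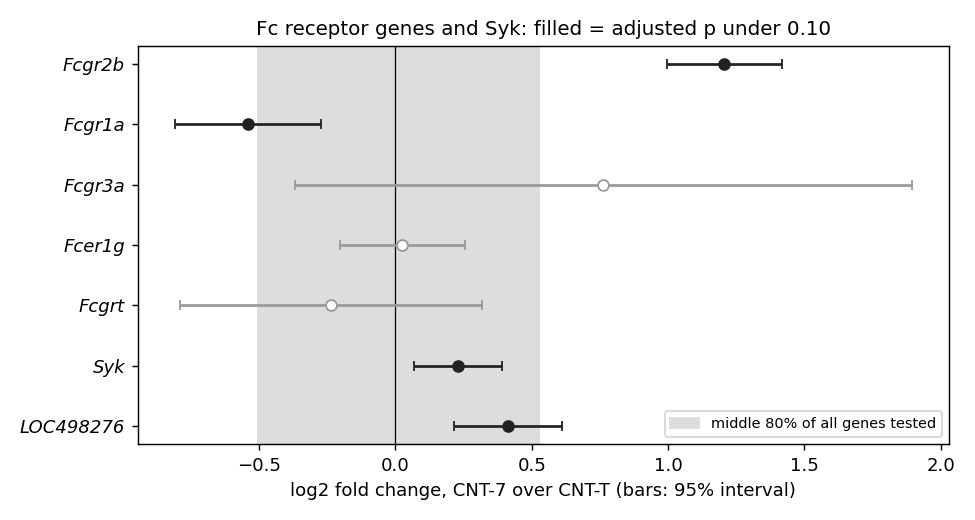
Log2 fold change (CNT-7 relative to CNT-T) with its 95% interval for the 6 genes and the related row LOC498276. The grey band from -0.51 to 0.53 leaves out the lowest and the highest 10% of all genes tested, and Fcgr2b lies above it with its whole interval, Fcgr1a (-0.54) just below its lower edge, and the interval of Fcgr3a is the widest.

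The levels of Fcgr1a and Fcgr3a, and of the related row LOC498276, were set against Fcgr2b within the same rat, which cancels the scaling between libraries. The log2 ratio of Fcgr1a to Fcgr2b was -3.66, -3.78, -4.33 and -3.52 in CNT-7 rats 3, 5, 10 and 11. In CNT-T rats 1, 2, 12 and 13 it was -1.96, -2.05, -2.05 and -2.16. The groups were far apart, with a difference in means of -1.77. Since Fcgr1a was lower and Fcgr2b higher in every CNT-7 rat, the ratio had to separate the groups and is no additional result. For Fcgr3a the ratio ran from -10.77 to -8.07 with CNT-7 against from -9.23 to -8.36 with CNT-T, and the groups overlapped. For LOC498276 it ran from -0.66 to -0.49 with CNT-7 against from -0.058 to 0.33 with CNT-T, although LOC498276 itself was higher after CNT-7. The ratios are given as a description without a test, and because counts grow with transcript length they can be compared between groups but do not say which receptor has more transcripts.

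**Figure D3:**
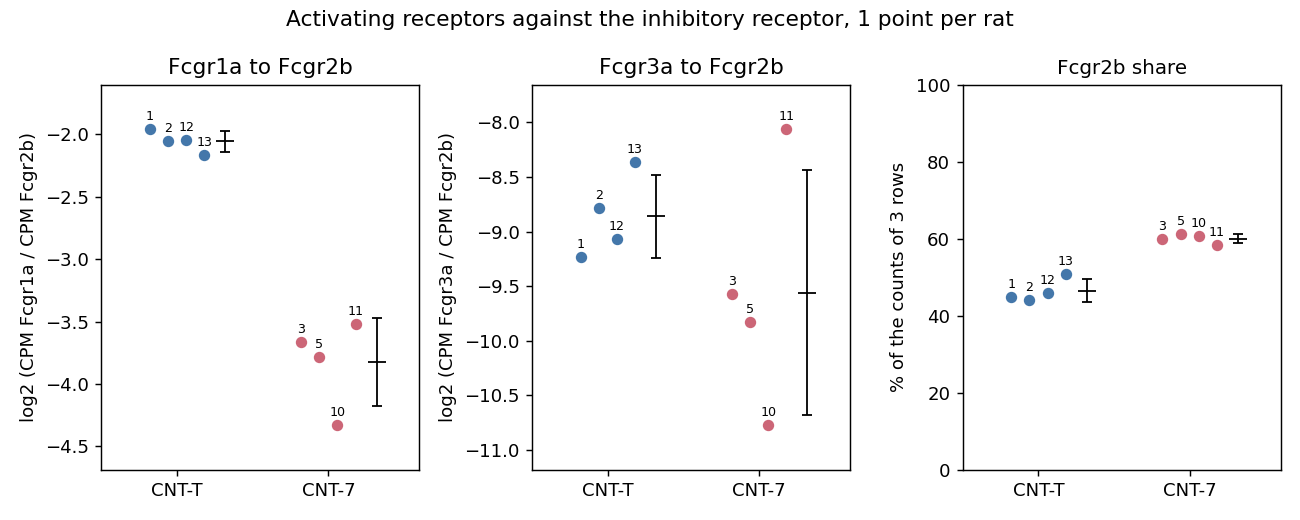
Log2 ratio of Fcgr1a and of Fcgr3a to Fcgr2b in CPM, and the share of Fcgr2b in the summed counts of Fcgr2b, Fcgr3a and LOC498276 (in percent), with 1 point per rat, the rat number, and mean and SD (n = 4). For Fcgr1a all CNT-7 rats lie below all CNT-T rats, which follows from its own fall and the rise of Fcgr2b. For Fcgr3a the groups overlap, and the share of Fcgr2b runs from 58.4% to 61.3% with CNT-7 against from 44.2% to 50.9% with CNT-T.

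Fcer1g (ENSRNOG00000024159), the chain that carries the ITAM for the activating receptors, had 472, 543, 456 and 471 CPM in CNT-7 rats 3, 5, 10 and 11. It had 538, 494, 480.2 and 398 CPM in CNT-T rats 1, 2, 12 and 13. The groups overlapped almost fully, with 486 ± 39.1 CPM with CNT-7 against 477 ± 58.5 CPM with CNT-T. The change on the log2 scale was 0.025 (standard error 0.10, 95% interval -0.20 to 0.25, edgeR's adjusted p = 0.89). Among the other partner chains, Tyrobp, which encodes the ITAM adaptor DAP12, had a log2 fold change of -0.11 (edgeR's adjusted p = 0.48), and Hcst, the adaptor DAP10, was not called either. The list of 4 partner chains held 3 tested genes, of which 0 were called by edgeR and 0 had an unadjusted p under 0.05. With DESeq2 1 gene was called, Cd247, the zeta chain of T and natural killer cells, which had too few counts for edgeR's filter (log2 fold change 2.52, DESeq2's adjusted p = 0.034).

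Fcgrt (ENSRNOG00000020583) had 53.8, 41.6, 28.9 and 70.2 CPM in CNT-7 rats 3, 5, 10 and 11 and 43.7, 71.4, 59.7 and 54.4 CPM in CNT-T rats 1, 2, 12 and 13. The groups overlapped (log2 fold change -0.24, standard error 0.25, 95% interval -0.79 to 0.32, edgeR's adjusted p = 0.55). B2m, which encodes the beta-2-microglobulin that pairs with it, had 6908 ± 880.1 CPM with CNT-7 against 6683 ± 761 CPM with CNT-T (log2 fold change 0.048, edgeR's adjusted p = 0.83).

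Within the CNT-7 group, rat 11 had the highest and rat 10 the lowest level of Fcgr1a, Fcgr3a and Fcgrt alike. Fcgr2b was highest in rat 10.

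Syk (ENSRNOG00000012160), the kinase that binds phosphorylated ITAMs, had 270.0, 269, 276 and 259.8 CPM in CNT-7 rats 3, 5, 10 and 11. It had 247, 236, 227 and 207 CPM in CNT-T rats 1, 2, 12 and 13. Each CNT-7 rat lay above every CNT-T rat by a narrow margin, and the means were 269 ± 6.79 CPM with CNT-7 against 229 ± 16.9 CPM with CNT-T. The log2 fold change was 0.23 (standard error 0.072, 95% interval 0.068 to 0.39, edgeR's adjusted p = 0.049), and 56.7% of all genes tested had a smaller change in size. The call depended on single rats. The log2 fold change stayed between 0.18 and 0.27, but edgeR's adjusted p was 0.104, 0.103 and 0.107 without CNT-7 rat 3, 5 or 10 and 0.121 without CNT-T rat 12.

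The levels of other genes around these receptors were taken from 8 lists, of which 104 genes were tested. With 22 genes higher and 17 lower in CNT-7, 37.5% were called, beside 27.9% of all genes, and their median log2 fold change was 0.023. The changes thus went in either direction in most lists.

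**Figure D4:**
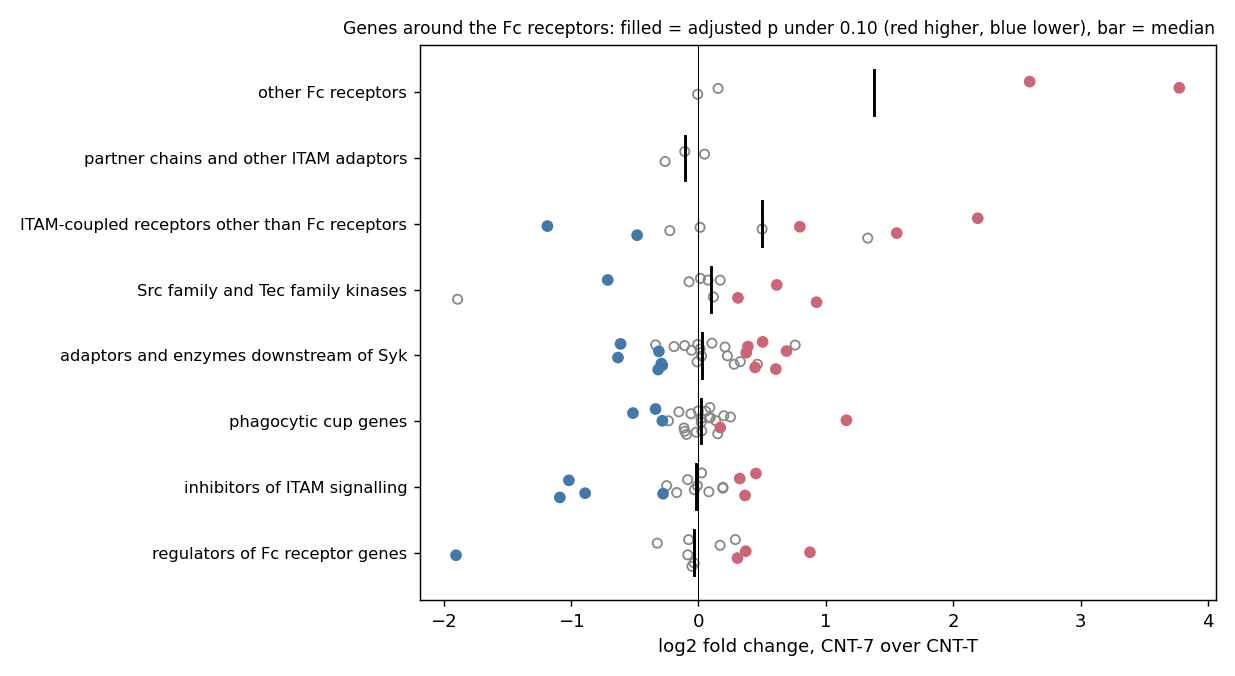
Log2 fold change (CNT-7 relative to CNT-T) for each tested gene of the 8 lists, with a bar at the median of the list and filled points for genes with an adjusted p-value under 0.10. Called genes lie on either side of 0 in 6 of the lists, and Fcrl2 (3.77) and Fcrlb (2.60) lie farthest to the right.

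Among 12 other Fc receptor genes 4 were tested, and 2 rose and 0 fell. Fcrl2, a member of the Fc receptor-like family, had 165.7, 60.1, 40.7 and 56.0 CPM in CNT-7 rats 3, 5, 10 and 11 and 2.09, 14.9, 4.29 and 2.00 CPM in CNT-T rats 1, 2, 12 and 13. It was higher in every CNT-7 rat, with the highest value in rat 3 (log2 fold change 3.77, standard error 0.71, edgeR's adjusted p = 0.0055). Fcrlb, a related intracellular protein, had 2.23 ± 0.81 CPM with CNT-7 against 0.37 ± 0.33 CPM with CNT-T (log2 fold change 2.60, edgeR's adjusted p = 0.0099). Trim21, the cytosolic antibody receptor, was not called, but was higher without CNT-7 rat 10 (log2 fold change 0.27, edgeR's adjusted p = 0.095). Fcrla had a log2 fold change of -0.0060 and was not called. Without CNT-T rat 2, which had 205 counts of Fcrla, it was 1.19 (edgeR's adjusted p = 0.023). Fcer1a and Ms4a2, the other chains of the IgE receptor of mast cells, had at most 2 counts in any rat.

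Of the 10 kinases of the Src and Tec families and their regulators, 3 rose and 1 fell. Lyn, which phosphorylates ITAMs and ITIMs alike, had 588 ± 40.7 CPM with CNT-7 against 474 ± 21.8 CPM with CNT-T (log2 fold change 0.31, edgeR's adjusted p = 0.017). Fgr rose from 239 ± 31.2 to 366 ± 44.7 CPM (log2 fold change 0.61, edgeR's adjusted p = 0.0064). Src itself had a log2 fold change of 0.93 (edgeR's adjusted p = 0.083), with overlap between the groups, and its call was kept only without CNT-7 rat 11 among the 8 fits omitting 1 rat (adjusted p between 0.107 and 0.221 in the other fits). Pag1, the membrane adaptor that brings the Src inhibitor Csk to the membrane, fell by 0.71 on the log2 scale. Yes1 had a log2 fold change of -1.89 and was not called, and without CNT-7 rat 11 it was -4.30 (edgeR's adjusted p = 0.00057).

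Downstream of Syk, 27 genes were tested, of which 6 rose and 6 fell. Pik3ap1, the adaptor BCAP of the PI3 kinase, rose from 94.97 ± 5.04 to 153 ± 6.88 CPM (log2 fold change 0.69, edgeR's adjusted p = 0.00031). Prkce (0.61), Pik3r5 (0.50) and the adaptor Grb2 (0.44) had the next largest rises in log2 fold change. The protein kinase C genes Prkcb and Prkca fell by 0.63 and 0.61, and the kinase gene Mapk3 and the PI3 kinase regulatory gene Pik3r1 fell by 0.32 and 0.31 on the log2 scale. Pik3r1 was not called without CNT-7 rat 3 (edgeR's adjusted p = 0.127).

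The 24 tested genes of the phagocytic cup, where actin closes around a bound particle, held 2 that rose and 3 that fell. The largest change was that of Gsn, which encodes the actin-severing protein gelsolin, with 92.0 ± 19.2 CPM with CNT-7 against 41.1 ± 7.79 CPM with CNT-T (log2 fold change 1.16, edgeR's adjusted p = 0.0020). Abi1, a subunit of the WAVE complex, rose by 0.17 in log2 fold change (edgeR's adjusted p = 0.093), a call that was lost in 7 of the 8 fits omitting 1 rat. Coro1a, Dock1 and Vav3 had log2 fold changes of -0.51, -0.34 and -0.28. The call of Vav3 was lost in 4 of the 8 fits omitting 1 rat (CNT-7 rat 3 or 10, or CNT-T rat 12 or 13). Rac1, Rac2 and Cdc42, the GTPases that drive the cup, were not called.

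Of 16 tested inhibitors of ITAM signalling, 3 rose and 4 fell. Inpp5d, the phosphatase that Fcgr2b recruits, had 144 ± 8.62 CPM with CNT-7 against 147 ± 12.3 CPM with CNT-T (log2 fold change -0.032, 95% interval -0.21 to 0.15, edgeR's adjusted p = 0.82). Ptpn6, which encodes the phosphatase SHP-1, had a log2 fold change of 0.19 (edgeR's adjusted p = 0.18). The related phosphatase gene Inppl1 rose by 0.37 and Dok1 by 0.32 in log2 fold change. Either call was lost in 3 of the 8 fits omitting 1 rat, for Inppl1 without CNT-7 rat 3 or 5 or CNT-T rat 12, and for Dok1 without CNT-T rat 2, 12 or 13. Sirpa, the receptor of the "don't eat me" signal CD47, rose from 192 ± 9.65 to 262 ± 3.68 CPM (log2 fold change 0.45, edgeR's adjusted p = 0.0015). Dusp6, Sla and Ptpn22 fell by 1.09, 1.02 and 0.89 and Pstpip1 by 0.28 on the log2 scale.

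Receptors other than Fc receptors that use Fcer1g, Tyrobp or Syk were called in 5 of 9 tested genes, 3 higher and 2 lower. Clec4e, which encodes the Fcer1g-coupled receptor Mincle, rose from 1.25 ± 0.77 to 5.67 ± 1.93 CPM (log2 fold change 2.19, edgeR's adjusted p = 0.0048). Clec5a (1.56) and Clec7a, the beta-glucan receptor (0.80), had the other rises in log2 fold change. Trem2, a DAP12-coupled lipid receptor, fell from 49.8 ± 4.23 to 21.9 ± 4.95 CPM (log2 fold change -1.19, edgeR's adjusted p = 0.0011), and Trem3 fell by 0.48 on the log2 scale.

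Of 11 tested regulators of Fc receptor genes, 3 rose and 1 fell. C5ar1, which encodes the complement C5a receptor, rose from 369.7 ± 25.5 to 678 ± 104 CPM (log2 fold change 0.88, edgeR's adjusted p = 0.0010). Spi1, which encodes PU.1, rose by 0.37 and Ifngr2 by 0.31 in log2 fold change. Irf8, an interferon-regulated myeloid factor, fell from 90.9 ± 21.6 to 24.3 ± 7.77 CPM (log2 fold change -1.90, edgeR's adjusted p = 0.00072). Irf1 had a log2 fold change of -0.32 and was not called.

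The genes whose log2 CPM followed each receptor most closely were named by Pearson's r over the 8 rats, among 11104 other genes with at least 1 CPM on average. For Fcgr2b these were Xpnpep2, Epha1 and Sdc1 (r between 0.993 and 0.994), with log2 fold changes of 5.38, 1.44 and 5.21. For Fcgr1a they were Rad54b, Zfp367 and Mcm4 (r between 0.992 and 0.996), with log2 fold changes of -1.27, -1.18 and -1.16. For Syk they were Trip10, Higd2a and Zfp775 (r between 0.977 and 0.992). Since the groups differed in Fcgr2b, Fcgr1a and Syk, r for these genes includes the difference between the groups. Fcer1g was closest to Arid3b (r = 0.972), Ndufa12 and Taok2, Fcgrt to Hdac3 (r = 0.982), Pygb and Nudt13, and Fcgr3a to Acpp (r = 0.957), Duox1 and Senp3. These values are a description over 8 rats without a test.

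Library totals ran from 27195157 to 33732981 counts, so that 3 counts correspond to at most 0.11 CPM. No 2 libraries held identical counts. The 10 macrophage markers were all tested, and their sum was 18654 to 24920 CPM with CNT-7 against 26987 to 39358 CPM with CNT-T, with 6 markers lower, 0 higher and Adgre1 at a log2 fold change of -1.13. Without Lyz2, their most abundant gene, the markers summed to 4018 to 6457.7 CPM with CNT-7 against 6458.3 to 9260 CPM with CNT-T. The remaining 4 markers were not called. T cell markers summed to 4.13 to 9.68 CPM with CNT-7 against 1.04 to 2.07 CPM with CNT-T, so that they were higher in every CNT-7 rat. Dendritic cell markers summed to 279.6 to 397 CPM with CNT-7 against 466 to 740.4 CPM with CNT-T, and without Fscn1 to 13.4 to 19.1 CPM against 7.34 to 15.7 CPM. Of the 5 dendritic cell markers tested, Clec9a, Ccr7 and Batf3 were called higher with CNT-7 and Fscn1 lower (median log2 fold change 0.78). Neutrophil markers summed to 26.3 to 68.5 CPM (3.08 to 11.1 CPM without Csf3r) and those of natural killer cells to between 2.67 and 7.77 CPM over all 8 rats. Markers of mast cells and basophils reached at most 2.64 CPM, of eosinophils at most 305 CPM (9.33 CPM without Siglec5), and of mesothelial cells at most 0.94 CPM in any rat. Epx, Prg3, Mpo, Gzmb, Upk3b and Wt1 had 0 counts in every rat. The part of other cells in the changes of the Fc receptor genes was not tested.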

How the data were processed

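RNA-seq was performed on sorted peritoneal macrophages of 4 CNT-7- and 4 CNT-T-treated rats, grouped by their sample labels. The authors quantified the reads with Salmon (version not given in the sources used here) against Ensembl cDNA sequences of Rnor_6.0, imported them with tximeta, and deposited estimated counts per gene without normalization, which were already whole numbers. 0 columns were left out.

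Counts were tested with edgeR 4.0.16 in R 4.3.3 (quasi-likelihood test, TMM, filterByExpr at 10 counts and 15 in total, Benjamini-Hochberg adjustment over all 12124 genes, threshold 0.10). CPM used TMM-normalized library sizes, and log2 CPM a prior count of 2. Standard errors were derived as log2 fold change over root F. Floors of 3 counts cover counting error only. Names of low-affinity receptors were compared with RefSeq GRCr8, whose coordinates are not given. Scripts were tested on simulated data.

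The genes and lists were chosen with earlier results of these data known. Given with values were the 6 genes, fixed partners (Tyrobp, B2m, Lyn, Fgr, Inpp5d, Ptpn6, Sirpa), up to 4 largest rises and 4 largest falls among called genes of each list, and the 3 genes closest to each receptor. Some genes under this rule are not reported here. LOC498276, Irf1, Hcst, Trim21, Fcrla, Yes1, Cd247, Adgre1, Clec9a, Ccr7, Batf3, Rac1, Rac2 and Cdc42 were named after their values were seen. Alternatives were DESeq2 1.42.0, upper-quartile normalization, other filters, an adjusted p-value under 0.05, the range of the rat numbers (1 to 5 or 10 to 13) as a block, a prior count of 0.5 for the ratios, and each rat left out. The sum with LOC498276 was added after seeing the data.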

Additional observations from a re-analysis of the deposited data

Results flagged for a closer look

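Of 94 sets of 4 rats, 6 held a rat distant from the others, its gap to the nearest rat divided by the range of the group being above 0.829 (Dixon's ratio). By chance 4.7 groups would be marked, and none of those marked was a group of the 6 genes described here. CNT-7 rat 3 had 165.7 CPM of Fcrl2 (ratio 0.845), beside 40.7 to 60.1 CPM for the rest of its group. For Inpp5d, CNT-T rat 1 had 166 CPM (ratio 0.870) beside 139 to 142 CPM. Clec4e and Pik3ap1 were highest in CNT-T rat 13 (ratios 0.868 and 0.85), Sla in CNT-T rat 12 (ratio 0.831), and Dock1 was lowest in CNT-T rat 1 (ratio 0.89).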

How the results depend on the processing

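Fcgr2b stayed called higher and Fcgr1a called lower under all alternatives run, with log2 fold changes between 1.15 and 1.26 and between -0.63 and -0.43. The call of Syk was lost only when single rats were left out (log2 fold change 0.18 to 0.27), and the number of the 6 genes called higher then fell from 2 to 1. Fcer1g was never called, and with each rat left out its log2 fold change ran from -0.055 to 0.087, below 0 without CNT-7 rat 5 or CNT-T rat 13. Fcgr3a and Fcgrt were never called (log2 fold change 0.021 to 1.04 and -0.47 to -0.053 with each rat left out). The number of other Fc receptors called higher fell from 2 to 1 with at least 10 counts in every rat, as Fcrlb had too few counts to be tested, and rose to 3 without CNT-7 rat 10 (Trim21) or CNT-T rat 2 (Fcrla). Of the partner chains, 1 gene (Cd247) was called higher with DESeq2 or with no filter on low counts, and 0 to 1 with each rat left out. Among the kinases, 2 genes were lower instead of 1 with the range of rat numbers as a block, and 1 to 2 with each rat left out. The kinases called higher fell from 3 to 2 at an adjusted p-value under 0.05 and in 7 of the 8 fits omitting 1 rat, each time by the loss of Src. Of the phagocytic cup genes, 4 were higher with DESeq2, 1 with no filter and 1 at an adjusted p-value under 0.05, and 1 to 2 with each rat left out. Of the inhibitors, between 1 and 3 were higher when each rat was left out. The cause of these changes was not tested apart from the filter on Fcrlb. No paired analysis was possible because the rat numbers of CNT-7 and CNT-T are all different. Fcgr3a had the fewest counts of the 6 genes (52 to 306 per rat), and the length of transcripts was not used, so levels of different receptors cannot be ranked.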
